A study of Mus musculus with 3 samples.

Results

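The genes described here encode 8 proteins through which B cells give costimulatory or inhibitory signals to T cells: Cd80, Cd86, Cd83, Cd40, Icosl, Cd274 (PD-L1), Pdcd1lg2 (PD-L2) and Tnfsf9 (4-1BB ligand). They are 8 of 32285 genes in the count matrices, were chosen by name, and were read beside the surface antibody tags antiCD80 and antiCD273 (PD-L2), 2 of 12 surface tags. The cells were splenic B cells of female BXD2 mice, a lupus-prone recombinant inbred strain labelled wild type, whose age is not given in the sources used here. Mice of the IL-4+R848 group were injected intraperitoneally with 5 µg IL-4 in complex with 25 µg anti-IL-4, which prolongs the action of the cytokine, and mice of the R848 group with the 25 µg of anti-IL-4 alone. R848, a TLR7 agonist, followed 2 h later in both groups at 40 µg per 20 g of mouse, so that neither group is free of R848 or of anti-IL-4. The labels call the control untreated, which was read here, from the treatment protocol, as anti-IL-4 plus R848. What anti-IL-4 alone did was not tested. Both injections were repeated 2 days later and spleens were taken after another 2 days from 3 mice per group. B cells were purified by negative selection and sequenced in 3 single-cell 5' libraries (sets 1 to 3), each a mixture of both treatments told apart by hashtag antibodies. The labels do not say that a set holds 1 mouse of each treatment, so p-values measure the spread between sets, which may be technical.

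CD80 and CD86 bind CD28 and CTLA-4 on T cells. CD83 is an activation marker that stabilises MHC class II and CD86 at the cell surface, CD40 receives CD40 ligand from helper T cells, and the products of Icosl and Tnfsf9 engage ICOS and 4-1BB. PD-L1 and PD-L2 engage the inhibitory receptor PD-1, and in mice surface CD80, PD-L2 and CD73 (Nt5e) are used to divide memory B cells into subsets.

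In total 35102 of 40130 barcodes were kept, 4579 to 5125 IL-4+R848 cells and 5641 to 7530 R848 cells per set. Median depth was 5199 to 6995 UMIs per cell with IL-4+R848 and 4445.5 to 5932 with R848. Barcodes carrying both hashtags made up 8.28% to 10.8% of each set and were removed. Between 219 and 289 barcode sequences were shared by each pair of sets. Of 8 known IL-4 target genes, 5 were called higher under the IL-4 hashtag in follicular-like cells. Nfil3 averaged 97.0 CPM (UMI counts scaled to a common library total) in IL-4+R848 and 2.99 CPM in R848 follicular-like cells. Clusters drawn without the 8 genes and their pathway lists gave 8 B cell states named from marker lists: follicular-like, transitional-like, activated-like, marginal zone-like, memory-like, germinal center-like, cycling-like and plasmablast-like. NK cell-like cells, 201 in all, gave the background level, from 21 to 59 IL-4+R848 cells and 7 to 45 R848 cells per set. Their NK cell markers summed to 24327 to 32689 CPM with IL-4+R848 and 4214 to 10466 CPM with R848. T cell markers summed to 604 to 741 CPM and 1189 to 2894 CPM in the same order. The make-up of this background thus differed between the treatments. The memory-like state had S100a6 and Zbtb32 among its leading genes, 8 of 10 memory markers were raised in it, and the B-1 list was its second highest. Each comparison of treatments was made within 1 state. CPM in such a comparison is scaled within that state, whereas CPM compared between states is scaled over all states of 1 treatment.

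Cd274 and Pdcd1lg2 are neighbours on chromosome 19 of GRCm38 (GENCODE vM21), both on the plus strand, with 22823 bases between the end of one gene and the start of the other. Cd274 spans chr19:29367455-29388095 and Pdcd1lg2 chr19:29410919-29471161. Cd80 (chr16:38455561-38496335, plus strand) and Cd86 (chr16:36603869-36666081, minus strand) share chromosome 16. Cd83 lies at chr13:43784775-43803132, Cd40 at chr2:165055627-165072948, Icosl at chr10:78069302-78083913 and Tnfsf9 at chr17:57105325-57107757, all on the plus strand. The 250 bases before the RefSeq start (GRCm38.p6, plus strand, 5′ to 3′) are shown for the PD-1 ligand pair, because their RNA differed in its pattern over states and treatments. They are chr19:29367188-29367437 and chr19:29410669-29410918. Capitals mark motif matches.
Cd274: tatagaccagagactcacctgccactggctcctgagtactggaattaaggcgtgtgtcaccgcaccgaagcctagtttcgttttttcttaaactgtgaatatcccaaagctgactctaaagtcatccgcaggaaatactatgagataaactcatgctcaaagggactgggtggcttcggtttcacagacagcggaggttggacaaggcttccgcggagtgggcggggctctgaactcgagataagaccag
Pdcd1lg2: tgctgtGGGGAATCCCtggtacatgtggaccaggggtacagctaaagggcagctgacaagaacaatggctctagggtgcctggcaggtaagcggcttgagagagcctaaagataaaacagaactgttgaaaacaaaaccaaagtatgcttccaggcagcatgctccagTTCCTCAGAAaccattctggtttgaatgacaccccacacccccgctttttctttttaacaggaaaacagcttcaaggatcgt
Both strands were searched for 4 motifs, each a pair of fixed ends with any bases between them: TTC and GAA with 4 bases between (the STAT6 type), TTC and GAA with 3 between (the general STAT type), GGG and CC with 5 between (a loose kappa B form), and GAAA and GAAA with 2 between (an interferon factor form). The Cd274 stretch held none of the 4. In Pdcd1lg2, GGGGAATCCC matched the kappa B form and TTCCTCAGAA the STAT6 type. Of 32851 promoter stretches of this length, 45.8% held the kappa B form and 5.85% the STAT6 type, while 7.02% held the general STAT type and 2.98% the interferon factor form. A match is a description of letters, not of binding. Cd80 and Icosl, the other members in the promoter table, held 2 kappa B matches each and none of the other forms.

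Follicular-like cells, the largest state, carried more Cd83, Cd86 and Cd40 RNA with IL-4+R848 than with R848. Of the 7 genes with enough counts for the test these 3 were called higher and 0 lower (edgeR quasi-likelihood test, adjusted p under 0.05), where 15.5% of 11099 tested genes were called in either direction, 7.89% higher and 7.57% lower. Cd83 reached 724, 750 and 760 CPM in IL-4+R848 sets 1 to 3, against 300, 348 and 353 CPM in R848 sets. Every IL-4+R848 set lay far above every R848 set. The means were 745 ± 18.7 and 334 ± 29.2 CPM (SD, n = 3 each), a log2 fold change of 1.16 (SE 0.06, edgeR adjusted p = 1.2e-06). The share of cells with a Cd83 UMI, after thinning each cell to 2000 UMIs, was 69.9% with IL-4+R848 and 43.6% with R848 (exact permutation test, two-sided p = 0.10, the smallest that 3 against 3 sets can give). In NK cell-like cells that share was 5.39% and 11.1% at the same depth.

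Cd86, the ligand of CD28 that resting B cells hold at a low level, measured 27.8, 32.9 and 26.9 CPM in IL-4+R848 sets and 20.5, 17.3 and 19.1 CPM in R848 sets. The groups did not overlap (log2 fold change 0.62, SE 0.10, edgeR adjusted p = 0.00166). When naive cells were taken by the IgD tag in place of clusters, the difference was 0.39 and was no longer called (edgeR adjusted p = 0.0711). Cd40, the receptor for T cell help, stood at 152, 144 and 143 CPM in IL-4+R848 sets and 113, 118 and 103 CPM in R848 sets, again without overlap. Its log2 fold change was 0.40 (SE 0.06, edgeR adjusted p = 0.00156).

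The remaining genes of follicular-like cells were not called. Icosl, the ligand of ICOS, measured 49.9, 44.9 and 40.2 CPM with IL-4+R848 and 52.1, 54.7 and 52.5 CPM with R848. All IL-4+R848 sets lay below all R848 sets (log2 fold change -0.24, edgeR adjusted p = 0.0706). With the set as a block, a pairing that the data bear out in this state, the same difference of -0.24 was called (edgeR adjusted p = 0.0314), and without set 1 it was -0.33 (edgeR adjusted p = 0.0441). Cd274 measured 21.2, 22.6 and 20.5 CPM with IL-4+R848 and 22.5, 22.9 and 20.7 CPM with R848, so that the groups overlapped (log2 fold change -0.04, SE 0.08, edgeR adjusted p = 0.797). Tnfsf9 was near the detection limit at 1.09, 1.12 and 2.14 CPM with IL-4+R848 and 0.936, 0.309 and 0.772 CPM with R848 (log2 fold change 1.08, SE 0.42, edgeR adjusted p = 0.117). Cd80 had 18 UMIs in all IL-4+R848 and 19 in all R848 follicular-like cells and was not tested.

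Pdcd1lg2 measured 12.2, 16.3 and 11.7 CPM in IL-4+R848 follicular-like cells and 11.2, 11.5 and 12.4 CPM in R848 cells, with overlap (log2 fold change 0.20, edgeR adjusted p = 0.365). This value depended on which clusters counted as follicular-like. Cluster 4 held 34.3% of IL-4+R848 but 1.1% of R848 follicular-like cells, and cluster 10 held 2.29% of IL-4+R848 and 15.6% of R848 cells. Without both clusters the difference was 0.59 (edgeR adjusted p = 0.0169), an alternative chosen after the data were seen. Within cluster 0 the means were 12.9 CPM with IL-4+R848 and 9.13 CPM with R848, and within cluster 1 they were 14.9 and 8.48 CPM in the same order. In cluster 3 they were 17.9 CPM with IL-4+R848 and 18.6 CPM with R848. Both clusters left out above also had lower means with IL-4+R848. In cluster 10 the means were 15.02 CPM with IL-4+R848 and 18.60 CPM with R848. In cluster 4 they were 8.44 and 9.85 CPM in the same order. Cluster 19 had the higher mean with IL-4+R848, at 18.4 CPM against 15.4 CPM with R848. The sets of the treatments overlapped in clusters 3, 4, 10 and 19. The mean of Cd83 was higher with IL-4+R848 in all 6 follicular-like clusters, up to 858 CPM with IL-4+R848 against 328 CPM with R848 in cluster 4. The sets overlapped in cluster 19, where interferon genes lead, with 542, 536 and 484 CPM in 87 IL-4+R848 cells and 317, 654 and 334 CPM in 103 R848 cells. In cluster 4, Cd86 was instead 21.9 CPM with IL-4+R848 and 32.3 CPM with R848, the R848 value resting on 87 cells.

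**Figure D1:**
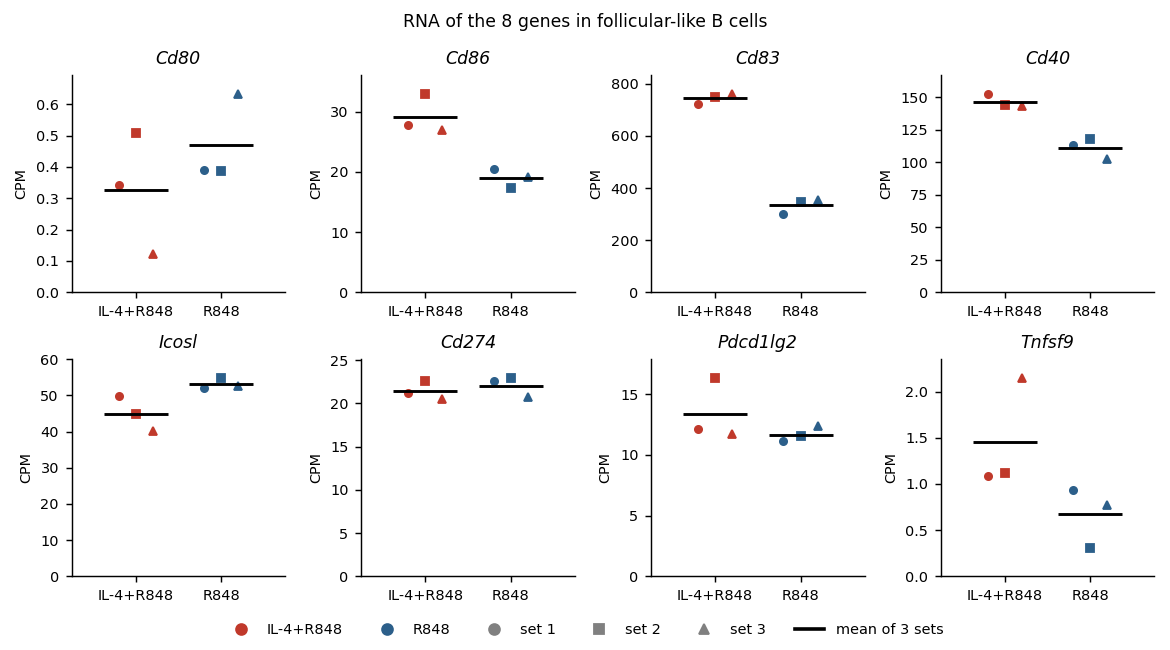
Each panel shows 1 gene in follicular-like cells, with IL-4+R848 (red) left of R848 (blue), on a y axis of CPM scaled within the state. Symbols are the 3 sets and the bar is their mean. For Cd83 the IL-4+R848 points lie at 724 to 760 CPM and the R848 points at 300 to 353 CPM, while the points of Cd274 overlap.

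The pathway genes around the 8 members formed 5 lists, 4 of which held both higher and lower calls in follicular-like cells. Among other B7, CD28 and checkpoint genes, 2 were higher and 4 lower of 11 tested (22 listed), with a median log2 fold change of -0.08 beside -0.01 over all 11099 genes. Tigit, an inhibitory receptor of T and NK cells, rose at a low level, with a mean of 0.178 CPM in R848 cells (log2 fold change 3.04, edgeR adjusted p = 7.8e-04). Timd2, a receptor of the TIM family, also rose, at 1.06 CPM with IL-4+R848 and 0.280 CPM with R848. Vsir, which encodes the inhibitory ligand VISTA, fell by 1.12 on the log2 scale (2.05 CPM with IL-4+R848, 4.44 CPM with R848), and Lag3, an inhibitory receptor, fell by 1.56. Of TNF superfamily genes 0 were higher and 5 lower of 11 tested (28 listed, median -0.35). They included Tnfsf10 (TRAIL), which fell by 1.09, and Lta (lymphotoxin alpha), at 11.2 CPM with IL-4+R848 and 17.8 CPM with R848 (log2 fold change -0.66, edgeR adjusted p = 0.00860).

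CD40 signalling and NF-kB genes were mostly not called, with 3 higher and 1 lower of 24 (median -0.05). Traf5 and Traf3, adaptors of the CD40 receptor, rose by 0.38 and 0.25 on the log2 scale. Bcl3, an atypical inhibitor of NF-kB, fell by 0.48. Among adhesion and SLAM genes 3 were higher and 8 lower of 18 tested (20 listed, median -0.16). Slamf6 measured 242 CPM with IL-4+R848 and 166 CPM with R848, and Slamf7 measured 37.0 CPM with IL-4+R848 and 23.1 CPM with R848. Both rose, whereas Slamf9 and Cd244a fell by 2.88 and 2.20. Of regulators of CD86, PD-L1 and PD-L2, 3 were higher and 7 lower of 22 tested (24 listed, median -0.07). Ciita, the master regulator of MHC class II genes, measured 202 CPM with IL-4+R848 and 129 CPM with R848 (log2 fold change 0.65), and Jak2, a cytokine receptor kinase, rose by 0.52. Irf4 and Batf, transcription factors of activated B cells, fell by 0.77 and 0.43. The IL-4 targets that served as the hashtag check had 5 of 8 higher, with a median of 1.03.

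Markers of other cell types were present at low levels in follicular-like cells. The T cell list summed to 0.467 to 1.12 CPM in IL-4+R848 sets and 0.734 to 1.29 CPM in R848 sets of follicular-like cells. The monocyte or macrophage list summed to 9.95 to 12.1 CPM with IL-4+R848 and 9.74 to 12.4 CPM with R848. The ranges of the treatments overlapped for these lists and for the NK cell, plasmacytoid dendritic and neutrophil lists. The conventional dendritic list was lower with IL-4+R848, at 0.444 to 0.780 CPM, against 1.71 to 2.17 CPM with R848, with Clec9a and Clec10a at 0 in both, and its part in the differences was not tested.

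Outside follicular-like cells Cd83 was the gene called in the most states. Over 7 other states there were 56 pairs of a gene and a state, 44 of them with enough counts for the test, and 8 were called, 7 higher and 1 lower with IL-4+R848. They were 2 pairs each in transitional-like, marginal zone-like and memory-like cells and 1 pair each in activated-like and cycling-like cells. Of all tested genes, 3.76% were called in transitional-like cells (2.08% higher, 1.68% lower), 2.69% in marginal zone-like cells (1.61% higher, 1.08% lower) and 2.73% in memory-like cells (1.74% higher, 0.991% lower). The share was 2.67% in activated-like cells (1.98% higher, 0.687% lower) and 1.1% in cycling-like cells (0.757% higher, 0.344% lower). In germinal center-like cells 0.451% were called (0.308% higher, 0.144% lower), 30 genes higher and 14 lower, which became 113 higher and 37 lower with the set as a block, with no member among the called genes either way. In plasmablast-like cells 0% were called.

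Cd83 in transitional-like cells measured 422, 492 and 535 CPM in IL-4+R848 sets and 172, 220 and 181 CPM in R848 sets (log2 fold change 1.34, SE 0.11, edgeR adjusted p = 6.2e-06). In memory-like cells it measured 461, 513 and 523 CPM with IL-4+R848 and 183, 208 and 179 CPM with R848 (log2 fold change 1.39, SE 0.10, edgeR adjusted p = 1.2e-04). Neither state had any overlap between the treatments. Marginal zone-like cells gave 671, 680 and 692 CPM with IL-4+R848 and 332, 343 and 360 CPM with R848 (log2 fold change 0.98, edgeR adjusted p = 6.6e-07). Cycling-like and activated-like cells had log2 fold changes of 1.23 (edgeR adjusted p = 6.4e-04) and 0.69 (edgeR adjusted p = 4.2e-04). Activated-like cells held the most Cd83 under R848, 504, 463 and 525 CPM, against 826, 861 and 721 CPM with IL-4+R848.

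Germinal center-like and plasmablast-like cells were the states in which Cd83 was not called. In germinal center-like cells it measured 271, 330 and 263 CPM with IL-4+R848 and 214, 250 and 233 CPM with R848, sets that lay apart but close (log2 fold change 0.31, edgeR adjusted p = 0.415). In plasmablast-like cells it measured 42.5, 48.9 and 52.2 CPM with IL-4+R848 and 31.7, 28.8 and 22.4 CPM with R848 (log2 fold change 0.79, edgeR adjusted p = 0.321). There edgeR called 0 of 10283 genes, with 501 at an unadjusted p under 0.05, whereas DESeq2 called 23 higher and 11 lower, Cd83 among the higher (DESeq2 adjusted p = 1.4e-04).

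Pdcd1lg2 was higher with IL-4+R848 in memory-like cells. It measured 47.8, 41.0 and 39.4 CPM in IL-4+R848 sets and 22.2, 22.9 and 16.9 CPM in R848 sets, with a wide gap between the groups. The log2 fold change was 1.06 (SE 0.16, edgeR adjusted p = 0.00652). Without set 1 it was 1.01 (edgeR adjusted p = 0.0622) and without set 2 it was 1.16 (edgeR adjusted p = 0.0662), so the call needed both sets. In marginal zone-like cells it measured 26.0, 24.0 and 26.4 CPM with IL-4+R848 and 15.6, 17.6 and 16.9 CPM with R848 (log2 fold change 0.61, SE 0.15, edgeR adjusted p = 0.0456). That call was lost under 8 alternatives, each single set left out among them (edgeR adjusted p of 0.158 to 0.328 without a set). In this state the monocyte or macrophage list summed to at most 8.16 CPM with IL-4+R848 and 9.31 to 15.8 CPM with R848, and the conventional dendritic list was also apart and lower with IL-4+R848. Their part was not tested.

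Icosl was the 1 gene that fell. In transitional-like cells it measured 28.1, 21.9 and 21.1 CPM with IL-4+R848 and 42.3, 39.1 and 37.2 CPM with R848, all IL-4+R848 sets being lower (log2 fold change -0.75, SE 0.16, edgeR adjusted p = 0.0182). It was not called by DESeq2 (adjusted p = 0.102) or without any 1 set (edgeR adjusted p = 0.0501 to 0.219). In marginal zone-like cells its log2 fold change was 0.27 (edgeR adjusted p = 0.310).

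The other genes of memory-like cells were not called. Cd80 measured 23.1, 20.2 and 19.7 CPM with IL-4+R848 and 25.1, 29.0 and 32.2 CPM with R848, the IL-4+R848 sets all being lower (log2 fold change -0.43, edgeR adjusted p = 0.257). Cd86 measured 73.5, 72.1 and 72.5 CPM with IL-4+R848 and 55.6, 57.5 and 47.5 CPM with R848 (log2 fold change 0.44, edgeR adjusted p = 0.0662). Cd274 measured 31.0, 45.6 and 33.9 CPM with IL-4+R848 and 32.5, 26.9 and 23.5 CPM with R848, which overlapped (log2 fold change 0.39, edgeR adjusted p = 0.382). After thinning to 2000 UMIs, a Pdcd1lg2 UMI was found in 8.90% of IL-4+R848 and 3.77% of R848 memory-like cells, and a Cd80 UMI in 3.55% and 8.23% in the same order (exact permutation p = 0.10 for both). These differences of 5.13 and -4.67 percentage points were 1.40 to 13.2 for Pdcd1lg2 and -1.37 to -1.13 for Cd80 at 1000 UMIs or without thinning. The exact permutation p was then 0.1 to 0.4 for Pdcd1lg2 and 0.2 to 0.5 for Cd80. Both the size of the differences and the separation of the sets thus changed with the thinning, and the reason was not tested. The T cell list in memory-like cells summed to 1.69 to 3.67 CPM with IL-4+R848 and 4.16 to 14.7 CPM with R848. The plasmacytoid dendritic list summed to 2.26 to 3.30 CPM with IL-4+R848 and 4.71 to 7.91 CPM with R848, and the neutrophil list to 0 to 0.565 CPM with IL-4+R848 and 1.04 to 3.33 CPM with R848, while the other 3 lists overlapped. Of defining markers, Cd3e and Siglech were at 0 in both treatments. The part of these cells in the memory-like values was not tested.

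Plasmablast-like Cd274 measured 19.4, 21.1 and 18.8 CPM with IL-4+R848 and 25.5, 30.8 and 28.7 CPM with R848. The sets did not overlap, but the difference was not called (log2 fold change -0.52, SE 0.09, edgeR adjusted p = 0.321). Marginal zone-like Cd274 measured 43.2, 69.0 and 67.5 CPM with IL-4+R848 and 68.7, 66.5 and 70.1 CPM with R848, IL-4+R848 set 1 alone being low. Activated-like Cd40 had a log2 fold change of 0.35 (edgeR adjusted p = 0.0726) and was called under at least 1 alternative, but not under others.

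**Figure D2:**
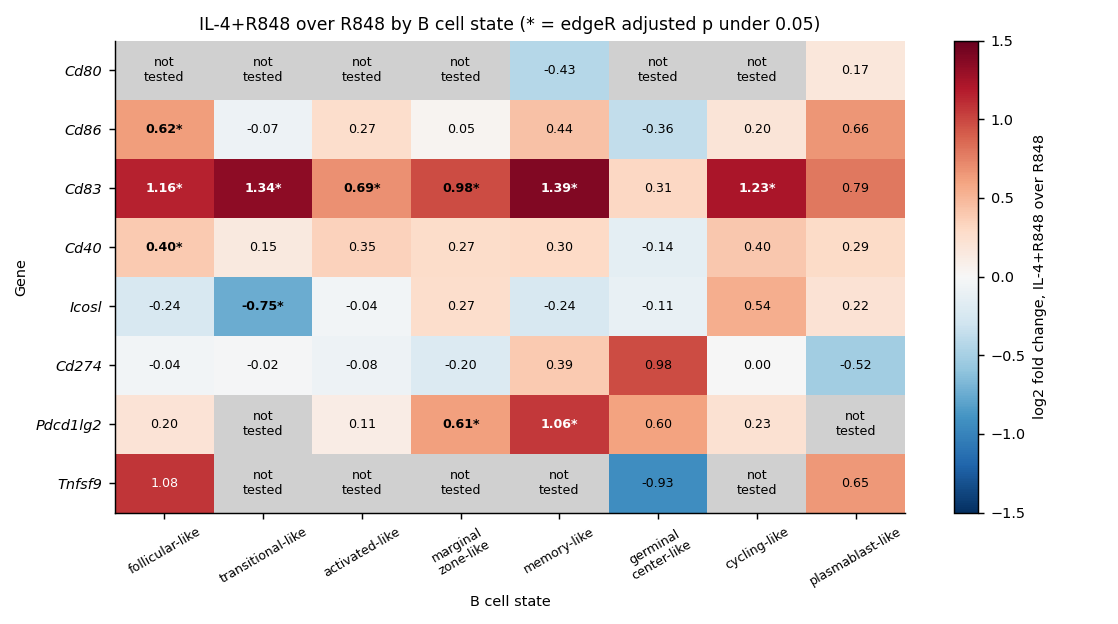
The heat map gives the log2 fold change of IL-4+R848 over R848 for each of the 8 genes (rows) in each of the 8 states (columns), with called pairs marked by an asterisk and untested pairs in grey. Cd83 is called in 6 states, with values of 0.69 to 1.39, and Pdcd1lg2 in memory-like (1.06) and marginal zone-like cells (0.61).

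Germinal center-like cells responded differently from follicular-like cells. The interaction of treatment and state was called in 4 of 56 pairs, all 4 in germinal center-like cells, where 3.68% of 10550 genes were called. In the 6 other states 0 pairs were called, beside 0.18% of all genes in transitional-like, 0.104% in activated-like, 0.664% in marginal zone-like, 0.152% in memory-like, 0.389% in cycling-like and 2.32% in plasmablast-like cells. Cd83 gained less in germinal center-like than in follicular-like cells (difference of log2 fold changes -0.87, SE 0.15, edgeR adjusted p = 1.9e-04). For Cd40 the difference was -0.56 (SE 0.17, edgeR adjusted p = 0.0501), just short of a call. Within germinal center-like cells the log2 fold change of Cd40 was -0.14 (edgeR adjusted p = 0.855). Cd86 measured 34.3, 32.9 and 32.1 CPM with IL-4+R848 and 44.0, 51.1 and 32.6 CPM with R848 in germinal center-like cells, and the groups overlapped because R848 set 3 was low. Its difference from the follicular-like effect was -0.99 (SE 0.19, edgeR adjusted p = 0.00103), and without set 2 it was -0.69 (edgeR adjusted p = 0.210).

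Cd274 in germinal center-like cells measured 10.1, 11.9 and 5.93 CPM with IL-4+R848 and 4.28, 6.16 and 3.69 CPM with R848. The groups touched, since 5.93 CPM lies below the highest R848 set. The interaction was 1.01 (SE 0.26, edgeR adjusted p = 0.0160). Tnfsf9 measured 5.63, 3.20 and 9.88 CPM with IL-4+R848 and 11.5, 11.0 and 12.6 CPM with R848, all IL-4+R848 sets being lower, and the interaction was -2.02 (SE 0.49, edgeR adjusted p = 0.0121). Neither gene was called within germinal center-like cells alone (edgeR adjusted p = 0.287 and 0.314), although each was called there under at least 1 alternative and not under others. Leaving out any 1 set ended the interaction call of Cd274 (edgeR adjusted p = 0.0588 to 0.219) and of Tnfsf9 (0.0650 to 0.228), while that of Cd83 was kept each time. The conventional dendritic list summed to 14.2 to 16.4 CPM with IL-4+R848 and 22.6 to 24.0 CPM with R848 in germinal center-like cells, with Clec9a, Cd209a and Clec10a at 0 in both, and its part was not tested.

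**Figure D3:**
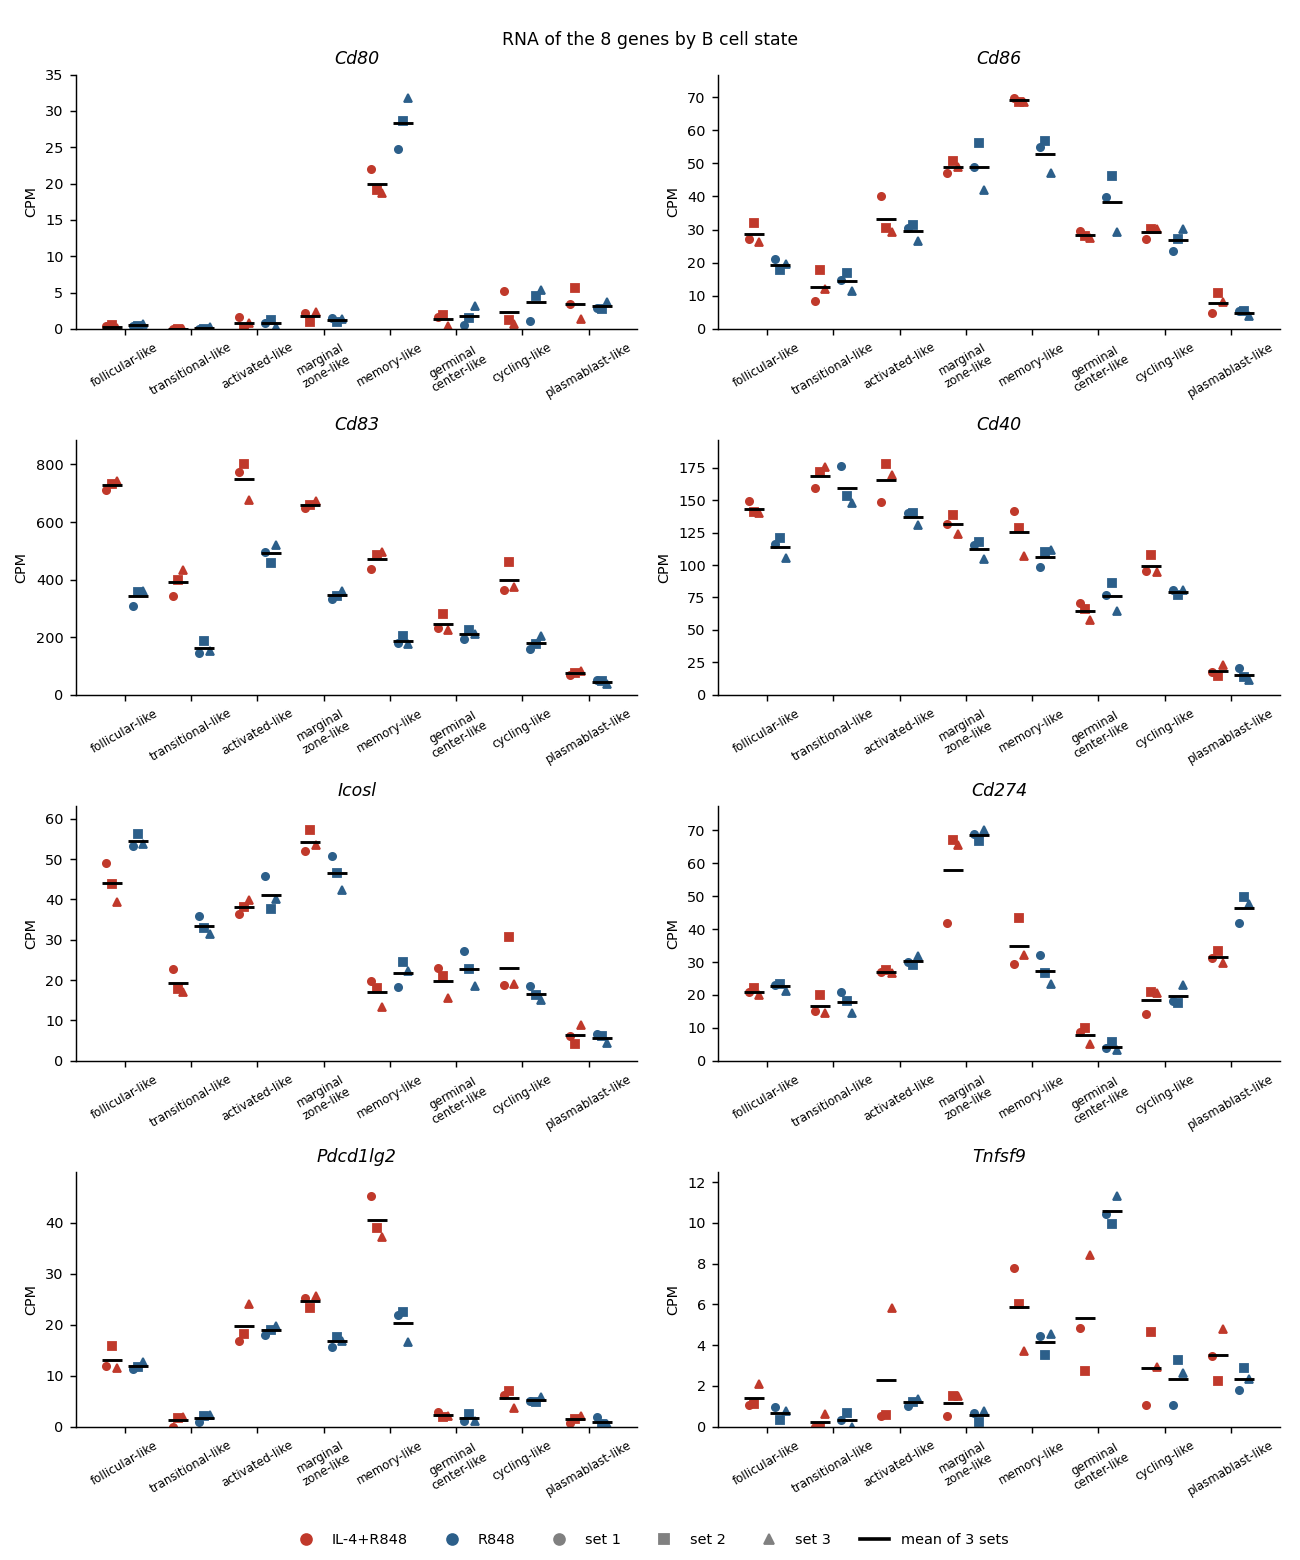
Each panel shows 1 gene in the 8 states (x axis), with IL-4+R848 (red) left of R848 (blue) and CPM scaled over all states of 1 treatment on the y axis, so that states compare within a colour. Symbols are the 3 sets and bars their means. Cd80 stands out in memory-like cells at 19.9 CPM with IL-4+R848 and 28.4 CPM with R848, and plasmablast-like cells have the lowest means of Cd83, Cd40 and Icosl in both treatments.

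B cell states differed in the levels of all 8 genes. Against follicular-like cells of the same treatment, with the set as a block, 76 combinations of gene, state and treatment were called. With IL-4+R848, memory-like cells had 7 of 8 genes called beside 18.1% of all genes, marginal zone-like 3 beside 12.5%, germinal center-like 7 beside 64.8% and plasmablast-like 8 beside 72.6%. Transitional-like cells had 4 beside 20.6%, cycling-like 5 beside 41% and activated-like 0 beside 19.4%. With R848, the numbers were 6 beside 29.1% in memory-like, 3 beside 25.8% in marginal zone-like, 8 beside 74.4% in germinal center-like, 8 beside 78% in plasmablast-like, 5 beside 28.8% in transitional-like, 7 beside 51.8% in cycling-like and 5 beside 38.3% in activated-like cells. The 8 genes themselves were kept out of the clustering, but genes that vary with them were not, so these p-values describe the separation of the clusters rather than an independent test.

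Cd80 RNA was concentrated in memory-like cells. With IL-4+R848 it averaged 19.9 CPM in memory-like cells and 3.48 CPM in plasmablast-like cells, the next state, whose set range of 1.37 to 5.60 CPM overlapped that of cycling-like cells (2.37 CPM). With R848 it averaged 28.4 CPM in memory-like cells, then 3.65 CPM in cycling-like and 3.11 CPM in plasmablast-like cells, which overlapped. Follicular-like cells were at 0.317 CPM with IL-4+R848 and 0.481 CPM with R848. The log2 difference of memory-like from follicular-like cells was 5.80 with IL-4+R848 (edgeR adjusted p = 5.1e-09) and 5.83 with R848 (edgeR adjusted p = 1.2e-10). Plasmablast-like cells also exceeded follicular-like cells, by 3.24 with IL-4+R848 and 2.64 with R848.

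Cd86, by contrast, was shared by memory-like and marginal zone-like cells. It averaged 69.0 CPM in memory-like and 48.9 CPM in marginal zone-like cells with IL-4+R848, ranges that lay apart. With R848 the averages were 52.8 and 49.0 CPM in the same order, and they overlapped. Germinal center-like cells exceeded follicular-like cells by 0.98 with R848 (edgeR adjusted p = 6.3e-08), whereas with IL-4+R848 the difference was 0.00 (edgeR adjusted p = 0.995). Plasmablast-like cells were lowest with either treatment, at 7.94 CPM with IL-4+R848 and 4.93 CPM with R848.

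Cd83 and Cd40 were lowest in plasmablast-like cells as well. For Cd83 with IL-4+R848, activated-like (751 CPM) and follicular-like cells (728 CPM) overlapped at the top, and plasmablast-like cells had 76.0 CPM. With R848 activated-like cells stood alone at 492 CPM and plasmablast-like cells had 45.2 CPM. Cd40 was highest in transitional-like cells, at 169 CPM with IL-4+R848 and 159 CPM with R848, and the IL-4+R848 range overlapped that of activated-like cells. Its level in plasmablast-like cells was 18.2 CPM with IL-4+R848 and 15.4 CPM with R848. Icosl was highest in marginal zone-like cells with IL-4+R848 (54.3 CPM, follicular-like 44.0 CPM) and in follicular-like cells with R848 (54.4 CPM, marginal zone-like 46.5 CPM), the ranges being apart in both.

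The PD-1 ligands had different state patterns. Cd274 was highest in marginal zone-like cells, at 58.1 CPM with IL-4+R848, where the sets overlapped those of memory-like cells (34.9 CPM), and 68.7 CPM with R848, and lowest in germinal center-like cells, at 7.96 CPM with IL-4+R848 and 4.25 CPM with R848. Plasmablast-like cells exceeded follicular-like cells in Cd274 by 0.59 with IL-4+R848 and 1.04 with R848 on the log2 scale. Pdcd1lg2 was instead lower in plasmablast-like than in follicular-like cells, by a log2 difference of -3.33 with IL-4+R848 and -3.60 with R848. It was highest in memory-like cells, at 40.5 CPM with IL-4+R848, apart from marginal zone-like cells at 24.7 CPM. With R848 memory-like (20.4 CPM) and activated-like cells (18.9 CPM) overlapped. Over the 16 means of state and treatment, which share libraries, Cd274 and Pdcd1lg2 had a correlation of 0.48.

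Tnfsf9, the ligand of 4-1BB, was highest in germinal center-like cells with R848, at 10.6 CPM, apart from memory-like cells at 4.17 CPM. With IL-4+R848, memory-like (5.85 CPM) and germinal center-like cells (5.33 CPM) overlapped. The excess of germinal center-like over follicular-like cells was 1.89 with IL-4+R848 (edgeR adjusted p = 2.4e-04) and 3.90 with R848 (edgeR adjusted p = 5.2e-11).

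Among genes tested in the joint fit, those whose log2 CPM followed a member most closely over the same 16 means were, for Cd80, Bcl2a1a (correlation 0.93), which has near-identical paralogs, and Afdn (0.92). They were Tomm34 and Lacc1 for Cd86 (0.95 each), Grap (0.95) and Xylt1 (0.94) for Cd83, Sh2b3 (0.98) and Vav2 (0.97) for Cd40, and Cdk13 and Fam160a2 for Icosl (0.96 each). For the PD-1 ligands they included Ap2b1 and Herc1 with Cd274 (0.93 each) and Gm20429 with Pdcd1lg2 (0.94). Zdhhc2 followed Tnfsf9 (0.93). Between members the highest correlations were 0.85 for Cd83 with Cd40 and 0.84 for Cd40 with Icosl, and the lowest were negative, -0.44 for Icosl with Tnfsf9 and -0.41 each for Cd40 with Tnfsf9 and Cd80 with Icosl.

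The antibody tags showed the surface protein of the Cd80 and Pdcd1lg2 genes. In memory-like cells antiCD273 averaged 51.6, 42.7 and 23.1 UMIs per cell in IL-4+R848 sets and 17.1, 20.7 and 9.63 UMIs in R848 sets. The IL-4+R848 sets were all higher, by the smallest margin in set 3 of IL-4+R848 against set 2 of R848. The means were 39.1 ± 14.6 and 15.8 ± 5.63 UMIs (SD, n = 3 each), a ratio of 2.48 (exact permutation test, two-sided p = 0.10, the smallest possible). Cell medians were 43, 30 and 8 UMIs with IL-4+R848 and 9, 10.5 and 4 UMIs with R848, which overlapped (exact permutation p = 0.3). Set 3 was the lowest in both treatments, and within each set the IL-4+R848 median was the higher. Sets were not taken as paired in memory-like cells, so the order within sets is a description only.

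The whole panel of 12 tags was higher with IL-4+R848 in memory-like cells, by 1.86-fold, and antiCD23, the tag of an IL-4 target, made up 85.6% of that excess. Per 1000 UMIs of the panel the antiCD273 ratio was 1.33 (exact permutation p = 0.3). Per 1000 UMIs of the 9 tags left after antiCD23, antiCD80 and antiCD273 were set aside, it averaged 151 with IL-4+R848 and 68.3 with R848, a ratio of 2.21 (exact permutation p = 0.10).

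AntiCD80 UMIs per cell overlapped between the treatments in memory-like cells. They averaged 98.6, 79.9 and 52.2 UMIs in IL-4+R848 sets and 83.1, 83.3 and 59.1 UMIs in R848 sets (76.9 ± 23.3 and 75.1 ± 13.9, SD, n = 3 each, exact permutation p = 1.0). Per 1000 panel UMIs antiCD80 was instead lower with IL-4+R848, at 89.2 against 164.5 with R848 (exact permutation p = 0.10, the smallest possible), and per 1000 UMIs of the 9 other tags it was 297 with IL-4+R848 and 329.9 with R848 (exact permutation p = 0.7). In follicular-like cells antiCD80 averaged 17.3, 14.1 and 13.2 UMIs with IL-4+R848 and 14.2, 12.6 and 10.9 UMIs with R848, and antiCD273 5.10, 3.49 and 2.65 UMIs with IL-4+R848 and 2.87, 2.80 and 2.01 UMIs with R848. Both overlapped (exact permutation p = 0.3 for each), although within each set IL-4+R848 was the higher for both tags. Both differences changed sign per 1000 panel UMIs.

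Among B cell states, memory-like cells carried the most of both tags in every set and treatment. Their antiCD273 level was 8.72 to 12.2 times that of follicular-like cells of the same set with IL-4+R848 and 4.79 to 7.38 times with R848. The antiCD80 level was 3.96 to 5.71 times with IL-4+R848 and 5.41 to 6.61 times with R848. Plasmablast-like cells followed for antiCD80, at 2.42 to 2.64 times with IL-4+R848 and 2.65 to 3.06 times with R848. Their cell medians were 31, 23 and 23 UMIs with IL-4+R848 and 29, 27 and 20 UMIs with R848. These are to be read beside the NK cell-like medians below and beside the share of plasmablast-like cells high for other tags, given further below. In germinal center-like cells antiCD80 averaged 18.0, 14.6 and 12.8 UMIs with IL-4+R848 and 12.2, 10.3 and 9.82 UMIs with R848, without overlap (exact permutation p = 0.10). Per 1000 panel UMIs this difference changed sign, to 12.3 with IL-4+R848 and 14.7 with R848 (exact permutation p = 0.2). NK cell-like cells gave median antiCD80 values of 22, 19 and 20 UMIs with IL-4+R848 and 26.5, 17 and 14 UMIs with R848, which were not below those of follicular-like cells, so low antiCD80 values lie within background. For antiCD273, NK cell-like cells averaged 2.05 to 2.95 UMIs in IL-4+R848 sets and 3.11, 50.1 and 3.49 UMIs in R848 sets, the value of set 2 coming from 7 cells.

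**Figure D4:**
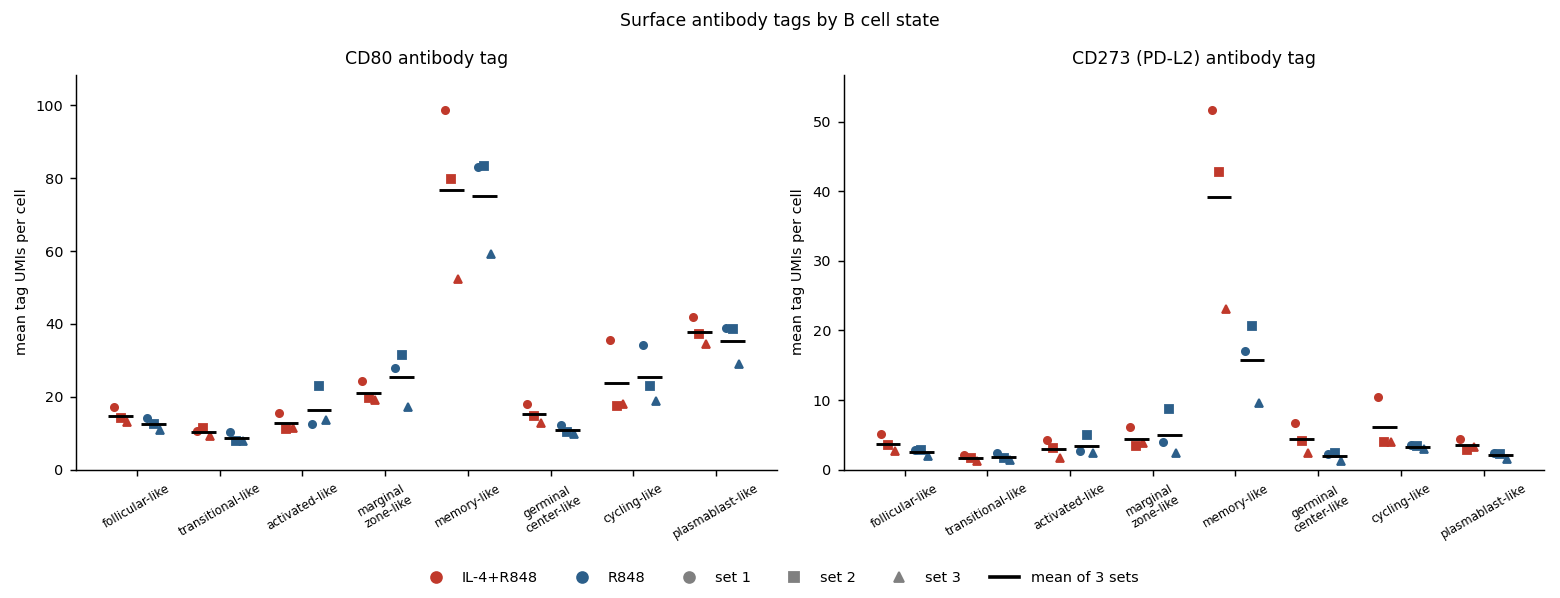
The panels show mean antiCD80 and antiCD273 UMIs per cell (y axis) in each state, IL-4+R848 (red) left of R848 (blue), with a symbol for each of the 3 sets and a bar for their mean. In every set and treatment memory-like cells lie above the other B cell states, and for antiCD273 their IL-4+R848 points (23.1 to 51.6) lie above their R848 points (9.63 to 20.7).

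Cells were called high for a tag when they exceeded the 95th percentile of R848 follicular-like cells of their set, more than 38, 31 and 29 UMIs for antiCD80 and 9, 7 and 7 UMIs for antiCD273 in sets 1 to 3. Of memory-like cells 74.7%, 63.3% and 41.6% were high for both with IL-4+R848 and 43.9%, 54.2% and 30.9% with R848. The groups overlapped (59.9 ± 16.8% and 43.0 ± 11.7%, SD, n = 3 each, exact permutation p = 0.3). Within each set the IL-4+R848 share was the higher, though sets were not taken as paired in this state. Cells high for CD80 only made up 10.9%, 10.2% and 18.0% with IL-4+R848 and 28.0%, 30.5% and 36.8% with R848, a lower share in every IL-4+R848 set (exact permutation p = 0.10). The share high for antiCD273 was 82.9%, 68.9% and 51.1% with IL-4+R848 and 48.6%, 57.2% and 37.5% with R848 (exact permutation p = 0.2). That high for antiCD80 averaged 72.9% with IL-4+R848 and 74.8% with R848 (exact permutation p = 1.0). Within each set the antiCD273 share was higher with IL-4+R848, whereas the antiCD80 share was higher with IL-4+R848 in set 1 only. For background, 28.9% of IL-4+R848 and 19.3% of R848 NK cell-like cells were high for antiCD80. For antiCD273 the shares were 5.79% and 6.69% in the same order. Of plasmablast-like cells 40.0% with IL-4+R848 and 37.0% with R848 were high for antiCD80. By the same rule 44.3% and 38.5% of them were high for antiCD11c and 81.3% and 82.0% for antiCD138. The shares were 13.3% and 13.7% for antiCD95 and 3.19% and 3.13% for antiCD27. The 9 other tags averaged 304 UMIs in IL-4+R848 and 942 UMIs in R848 NK cell-like cells. Of follicular-like cells 6.64% with IL-4+R848 and 4.87% with R848 were high for antiCD80, and 7.52% and 4.70% for antiCD273. All IL-4+R848 sets were higher there, the R848 shares being fixed by the cutoff.

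**Figure D5:**
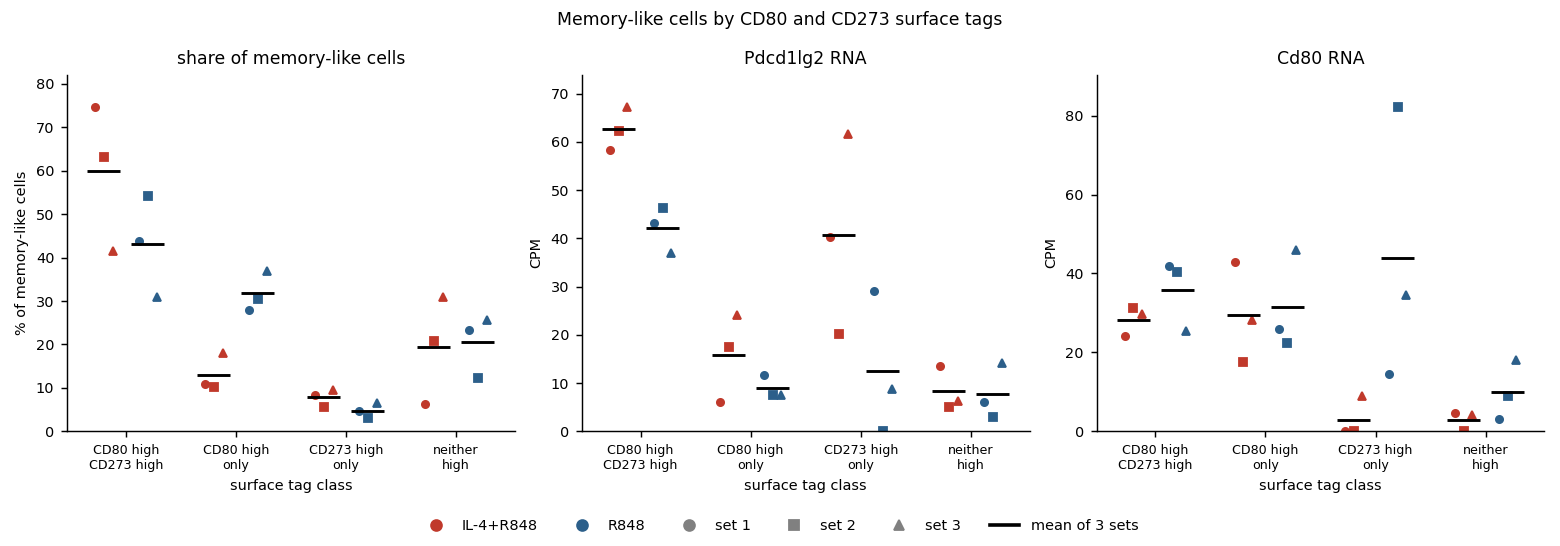
The first panel shows the share of memory-like cells (percent) in 4 classes of surface CD80 and CD273, and the others show Pdcd1lg2 and Cd80 RNA (CPM) in the same classes, IL-4+R848 (red) left of R848 (blue), with symbols for the 3 sets and bars for the mean. The class high for CD80 only lies at 10.2% to 18.0% with IL-4+R848 and 28.0% to 36.8% with R848. Pdcd1lg2 in the class high for both lies at 58.4 to 67.2 CPM with IL-4+R848 and 37.0 to 46.4 CPM with R848.

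Memory-like cells with a Pdcd1lg2 UMI carried 1.34 to 2.49 times the antiCD273 of those without, above 1 in all 6 sums of set and treatment, and those with a Cd80 UMI carried 1.11 to 1.98 times the antiCD80. The median ratio of the 10 other tags was 0.66 to 1.09 in the same splits, but the highest of them was 1.30 to 1.77 in the Pdcd1lg2 splits and 1.24 to 4.88 in the Cd80 splits. In R848 set 3 for Pdcd1lg2, and in 4 of the 6 splits for Cd80, another tag had a higher ratio than the gene's own. In the class high for both tags, Pdcd1lg2 measured 58.4, 62.2 and 67.2 CPM with IL-4+R848 and 43.1, 46.4 and 37.0 CPM with R848. The IL-4+R848 sets were again all higher within this class. In the class high for neither it averaged 8.29 CPM with IL-4+R848 and 7.70 CPM with R848.

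The surface classes also differed in immunoglobulin RNA, which the tags did not use. Ighm (IgM heavy chain) averaged 235 CPM with IL-4+R848 and 535 CPM with R848 in the class high for both, and 1084 and 1335 CPM in the same order in the class high for neither. Igha (IgA) averaged 372 and 272 CPM in the class high for both and 22.0 and 53.0 CPM in the class high for neither, IL-4+R848 before R848. Ighg1 and Ighg2b also had higher means in the class high for both with either treatment. Ighg3 went the other way, at 27.1 and 41.6 CPM when high for both and 49.2 and 74.5 CPM when high for neither. Ighg2c was mixed, at 83.4 and 179 CPM when high for both and 73.4 and 418 CPM when high for neither. Nt5e (CD73) averaged 18.1 CPM with IL-4+R848 and 32.2 CPM with R848 in the class high for both and 6.22 and 10.4 CPM in the class high for neither. These classes held 74 to 254 cells per set when high for both and 21 to 81 when high for neither, and the differences between classes were not tested.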

How the data were processed

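Spleen B cell libraries held whole-number UMI counts per gene and per antibody tag, as deposited by the authors and not normalized. Cell Ranger 6.0.1 is named in the file headers. The submitters' processing notes list mm10 and Seurat 4.1.3, with no role for the second tool. The hashtag feature names gave each cell's treatment. A cell needed at least 64 UMIs of 1 hashtag and 4-fold the other plus 1, at least 500 genes and under 10% mitochondrial UMIs. Barcodes with both hashtags were removed. No doublet caller was run, so doublets of 1 treatment remain. Cells were scaled to 10000 UMIs, logged, centred within set and treatment, and clustered on 2000 variable genes (30 principal components, 15 neighbours, Leiden resolution 1, seed 1, scanpy 1.11.5, leidenalg 0.10.2, Python 3.11.15). The 8 members and their pathway lists (134 genes) and 748 immunoglobulin variable, T cell receptor, mitochondrial and ribosomal genes were left out of clustering. Of 21 clusters, 5 stayed unnamed (2097 cells). The naming rule was made after the clusters were seen.

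Counts of the cells in each state were added up by set and treatment and tested with edgeR 4.0.16 (limma 3.58.1, R 4.3.3; quasi-likelihood, TMM, low-count filter, Benjamini-Hochberg over all genes tested, called under 0.05), with DESeq2 1.42.0 as an alternative. Treatments were compared within a state without a block. States were compared, and interactions fitted, with the set as a block. Tags and shares were compared with exact two-sided permutation tests over sets (SciPy 1.17.1). The scripts were tested on simulated counts. Set numbers come from the titles. Same-numbered sums deviated together in follicular-like (correlations 0.455, 0.352 and 0.343), transitional-like (0.193, 0.144 and 0.163) and germinal center-like cells (0.107, 0.289 and 0.113), each over 0.1, and so were taken as paired there but not in the other states. Depth limits low genes, and counting intervals would cover counting error only. All members are reported. From each pathway list, up to 2 called genes per direction with the largest change are named, and for each member the 2 genes most correlated with it, of which 1 each for Pdcd1lg2 and Tnfsf9 is not reported here. Members and lists were chosen with earlier results of these data known.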

Additional observations from a re-analysis of the deposited data

Results flagged for a closer look

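The IL-4 effect differed between germinal center-like and follicular-like cells by a test of the difference itself for 4 genes, as differences of log2 fold changes (IL-4+R848 over R848) in 1 edgeR fit with the set as a block. Cd86 differed by -0.99 and Cd83 by -0.87. The log2 fold change of Cd86 was -0.36 in germinal center-like and 0.62 in follicular-like cells. That of Cd83 was 0.31 and 1.16 in the same order. Neither gene was called within germinal center-like cells alone. Cd274 differed by 1.01 and Tnfsf9 by -2.02. Germinal center-like sums held 115 to 200 IL-4+R848 cells and 324 to 513 R848 cells per set, and median depth was 14546 to 17762 UMIs with IL-4+R848 and 12337 to 14790 UMIs with R848. The part of cell number and depth in these differences was not tested.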

How the results depend on the processing

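In the other B cell states 8 pairs were called, and 5 to 6 were without 1 set. The 4 interaction calls were 1 to 2 without 1 set. The 3 follicular-like calls were 2 to 4 over all alternatives, and the 76 state calls 70 to 79, of which 63 were called under every alternative and 0 changed sign. Cd274 in follicular-like cells (-0.04) was 0.087 with clusters centred within sets only and 0.12 without the clusters of 1 treatment. The cause was not tested for these changes.

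Tag differences depended on scale. The follicular-like antiCD80 difference of 2.30 UMIs was -3.21 per 1000 UMIs of the panel and -0.414 per 1000 UMIs of 9 other tags, and that of antiCD273 (1.19) was -0.0693 per 1000 panel UMIs. In memory-like cells the antiCD80 difference of 1.78 was -75.3 and -32.9 on these scales, -0.771 with clusters centred within sets only, and -5.12 to 6.08 without 1 set (-5.12 without set 1). With sets as pairs the sign-flip test cannot go below 0.25.

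With the replicate block, follicular-like calls were 4 (Icosl added) and those in other states 7, where Pdcd1lg2 in marginal zone-like cells was lost (edgeR adjusted p = 0.0558). The block changed no other call of a member between treatments, and state calls were 74 without it. Without a low-count filter, 12 pairs were called in other states. Of 26 further tested pairs, 11 changed sign under at least 1 alternative and 0 were called. Counts were low for Tnfsf9, follicular-like Cd80 and plasmablast-like Pdcd1lg2, and the part of depth in this was not tested.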
